A study of Homo sapiens with 6 samples.

Results

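The zinc-finger genes of human chromosome 19 were followed across 3 lists of active transcription start regions from K562 cells. Members were the protein-coding genes of chromosome 19 in GENCODE release 29 (GRCh38) whose symbols consist of ZNF, a number and at most 1 letter. The rule uses names and positions only, and it gave 246 genes of the 19864 protein-coding genes on chromosomes 1 to 22 and X. The same naming rule gave 263 ZNF genes on other chromosomes, which served as the nearest comparison.

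K562 is an established human leukaemia line, which the labels call lymphoblastoid, and the cells were not treated. Precision run-on sequencing maps RNA polymerases engaged on DNA by letting them add a biotin-labelled nucleotide to their nascent RNA. The 6 libraries formed 3 groups of 2 replicates, which were at least 3 passages apart: PRO-seq 1M, made from 1M cells by the published protocol with 3 affinity purifications; qPRO-seq 1M, from as many cells by a shortened protocol with 1; and qPRO-seq 250k, by the shortened protocol from 250k cells. Each group is represented by 1 list of peaks called by dREG, a classifier that finds promoters and enhancers from run-on reads on both strands, and that list stands for both replicates. There was therefore no spread between replicates and no test between groups. The 1M libraries had 11 PCR cycles and the 250k libraries 14, so input and amplification cannot be told apart between the qPRO-seq groups. Read depth is unknown here, so list length and library depth cannot be told apart.

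On chromosomes 1 to 22 and X the lists held 24707, 38177 and 15562 peaks for PRO-seq 1M, qPRO-seq 1M and, last, qPRO-seq 250k, the order in which values of the 3 lists are given below. The cell type was looked at through erythroid marker genes, of which 7, 8 and 7 of 8 had a start peak in these lists. Of all protein-coding genes, 52.9, 54.5 and 44% had one. A gene counted as marked, or as having a start peak, if the distance from 1 of its transcript starts in GENCODE to some peak interval was at most 500 bp. The score is the authors' own value for each peak. It is given here as a score percentile, the share of peaks in the same list with a score at or below it, and percentiles are compared only between gene classes within a list. Intervals in parentheses are 95% intervals for counting error alone, and neighbouring genes are not independent.

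C2H2 zinc-finger proteins bind DNA through arrays of short zinc-binding fingers, each of which contacts a few bases. Many of those on chromosome 19 also carry a KRAB domain, which recruits the co-repressor TRIM28 and, through it, the histone methyltransferase SETDB1. They lie in tandem clusters that arose by repeated gene duplication, and many of them are known to silence transposable elements.

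Near copies within the family can be read in some of its promoters. The sequences below are bases just upstream of RefSeq starts (RefSeq, build GRCh38.p14), without any base in a GENCODE exon, written 5′ to 3′ on the gene's strand with CpG dinucleotides in capitals. ZNF431 (chr19:21141790-21142023, plus strand), ZNF492 (chr19:22634074-22634323, plus strand) and ZNF208 (chr19:22010950-22011193, minus strand) are shown because these cluster neighbours had a start peak in all 3 lists, in qPRO-seq 1M alone and in none. ZNF564 (chr19:12551543-12551732, minus strand) had the highest PRO-seq 1M score of the family. ZNF256 (chr19:57947707-57947956, minus strand) had no start peak and the most CpG of the 5 sequences.
ZNF431: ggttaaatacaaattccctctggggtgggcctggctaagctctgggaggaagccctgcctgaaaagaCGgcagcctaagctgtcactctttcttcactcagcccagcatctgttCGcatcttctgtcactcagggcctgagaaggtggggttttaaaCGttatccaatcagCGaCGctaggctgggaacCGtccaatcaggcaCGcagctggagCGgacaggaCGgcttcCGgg
ZNF492: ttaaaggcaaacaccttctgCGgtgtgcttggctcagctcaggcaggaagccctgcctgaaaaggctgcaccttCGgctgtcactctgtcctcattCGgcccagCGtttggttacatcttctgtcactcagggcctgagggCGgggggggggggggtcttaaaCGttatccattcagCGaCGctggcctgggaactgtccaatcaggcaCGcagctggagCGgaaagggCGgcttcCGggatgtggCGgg
ZNF208: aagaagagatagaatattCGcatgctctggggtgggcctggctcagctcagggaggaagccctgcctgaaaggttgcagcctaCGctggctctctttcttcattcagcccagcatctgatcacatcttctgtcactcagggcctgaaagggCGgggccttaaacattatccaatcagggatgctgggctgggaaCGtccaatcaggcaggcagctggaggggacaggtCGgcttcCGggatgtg
ZNF564: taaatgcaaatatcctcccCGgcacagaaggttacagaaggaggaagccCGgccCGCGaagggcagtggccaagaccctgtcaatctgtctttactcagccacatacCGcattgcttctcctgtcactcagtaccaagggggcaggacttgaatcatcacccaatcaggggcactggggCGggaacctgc
ZNF256: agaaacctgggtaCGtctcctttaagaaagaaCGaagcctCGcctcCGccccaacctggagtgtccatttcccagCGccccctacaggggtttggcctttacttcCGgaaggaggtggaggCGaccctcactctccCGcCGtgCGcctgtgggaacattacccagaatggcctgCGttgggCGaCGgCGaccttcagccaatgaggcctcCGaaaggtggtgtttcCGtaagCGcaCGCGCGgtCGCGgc
ZNF431 and ZNF208 were identical at 87.2% of the shorter sequence after global alignment, ZNF431 and ZNF492 at 83.8%, and ZNF492 and ZNF208 at 82.0%. Between clusters, ZNF431 and ZNF564 reached 76.8%, ZNF564 reached 72.6% with each of ZNF492 and ZNF208, and ZNF431 and ZNF256 reached 59.8%. ZNF256 reached 67.9% with ZNF564, 58.4% with ZNF492 and 57.8% with ZNF208. The percentages with ZNF564 rest on its 190 bases, the shortest of the 5 sequences, so they are not on the same base as the others. The printed sequences held 10 CpG in ZNF431, 13 in ZNF492, 6 in ZNF208, 6 in ZNF564 and 22 in ZNF256. The printed lengths differ. In windows of 300 bases ZNF564, with a score percentile of 98.5 in PRO-seq 1M, had 13 CpG, against 10 in ZNF208 and 26 in ZNF256, which had no peak.

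Of the 246 members, 148 had a start peak in the PRO-seq 1M list (60.2%, 53.9 to 66.1), where 52.9% of all protein-coding genes had one. The qPRO-seq 1M list gave 173 (70.3%, 64.3 to 75.7), against 54.5% of all protein-coding genes. In the qPRO-seq 250k list 122 members had one (49.6%, 43.4 to 55.8), against 44% of all. The family thus stood above the genome-wide share in every list, by the most in qPRO-seq 1M. Members exceeded non-ZNF coding genes off chromosome 19 by 7.83 points in PRO-seq 1M (1.56 to 13.8) and by 16.5 points in qPRO-seq 1M (10.4 to 21.9). The difference in qPRO-seq 250k was 5.95 points, with an interval that includes 0 (-0.285 to 12.2). The excess in PRO-seq 1M turned to -0.0610 points when each list was reduced to its 15562 top-scored peaks, and the excess in qPRO-seq 1M then became 2.90 points.

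Against the rest of their own chromosome, members were 14.5 points more often marked in qPRO-seq 1M (7.86 to 20.5). In PRO-seq 1M the difference was 5.76 points (-1.06 to 12.3), and in qPRO-seq 250k 5.79 points (-1.001 to 12.6). Only the qPRO-seq 1M interval lay wholly above 0, and at equal list sizes that difference was 4.75 points.

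ZNF genes elsewhere in the genome were marked more often than members. Of these 263 genes, 76.4% had a start peak in PRO-seq 1M, 76.4% in qPRO-seq 1M and 62.4% in qPRO-seq 250k. The difference, members minus ZNF genes elsewhere, was -16.3 points in PRO-seq 1M (-24.1 to -8.19). At 250k it was -12.8 points (-21.1 to -4.14). In qPRO-seq 1M it was -6.10 points (-13.7 to 1.57), an interval that includes 0, and at equal list sizes it was -18.0 points.

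**Figure D1:**
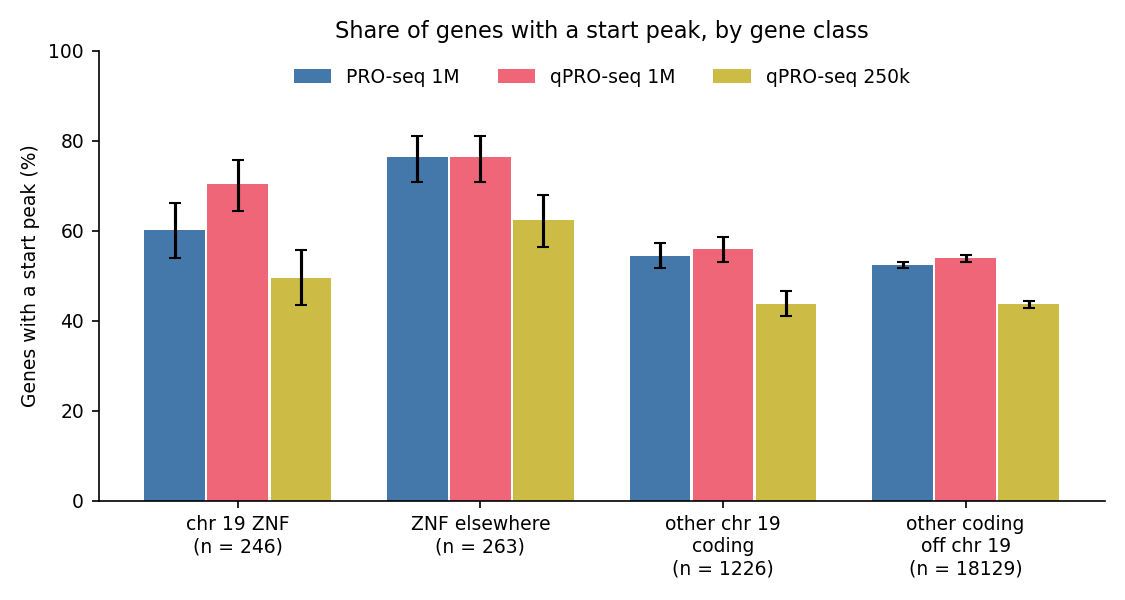
Share of genes with a start peak (vertical axis, percent) in 4 gene classes, with a bar for each list and Wilson 95% intervals for counting error. Chromosome 19 ZNF genes reach 60.2, 70.3 and 49.6%, below the bars for ZNF genes elsewhere.

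Gene by gene, 108 members had a start peak in all 3 lists and 62 had none in any. A further 30 were marked at 1M by both protocols, and 11 by the shortened protocol at both inputs. In a single list stood 24 (qPRO-seq 1M), 8 (PRO-seq 1M) and 1 (qPRO-seq 250k), and 2 were missing from qPRO-seq 1M only. The lists thus disagreed on 76 members. Among ZNF genes elsewhere, 160 of 263 were in all 3 lists and 52 in none.

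**Figure D2:**
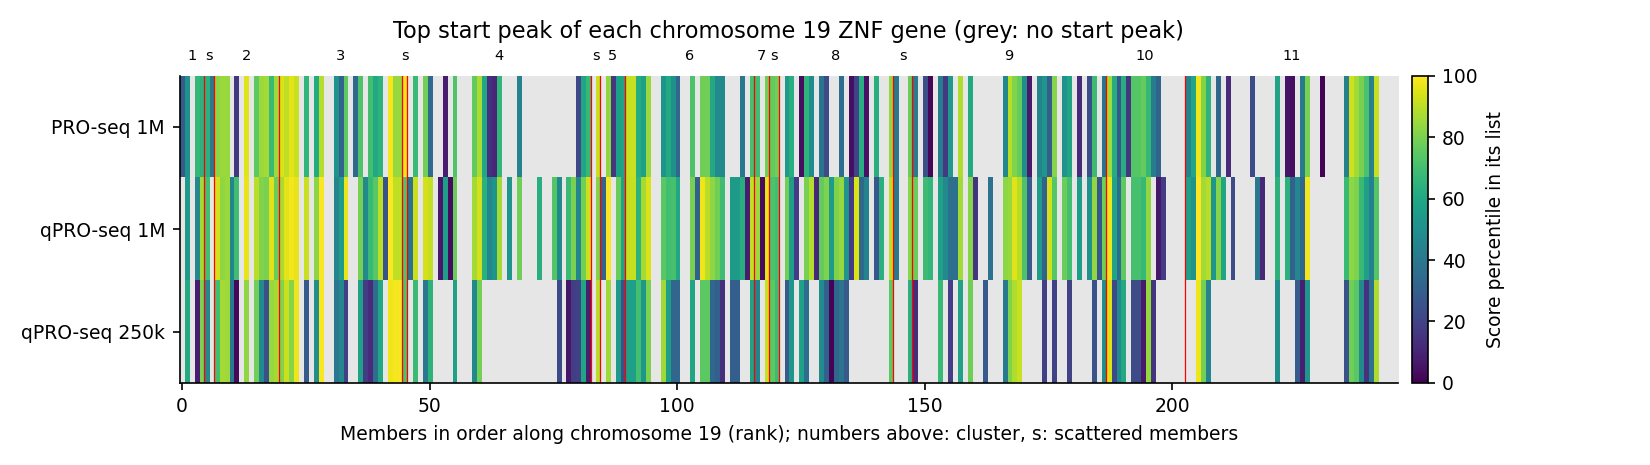
The 246 members from left to right in their order along chromosome 19 (rank), with a row for each list, coloured by the score percentile of the top start peak (0 to 100) and grey where there was none. Red lines part the clusters, whose numbers stand above, and grey stretches common to all 3 rows are the 62 members without a start peak.

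By median, the top start peaks of members ranked lower within each list than those of the other classes. In PRO-seq 1M their median score percentile was 61.9 (56.7 to 66.5). It was 72.1 (67.6 to 77.7) in qPRO-seq 1M and 51.3 (44.7 to 57.6) at 250k. ZNF genes elsewhere had medians of 77.6, 81.7 and 70.5 in the same order, and non-ZNF coding genes off chromosome 19 had 77.2, 81.2 and 69.0. Members were thus below both classes in each list. The other coding genes of chromosome 19 lay closer to them, at 65.6 (63.2 to 68.4), 75.02 (73.1 to 77.5) and 59.7 (56.8 to 62.9). These intervals overlapped those of members in every list. Below the 25th percentile of the list lay 23 of the 148 marked members in PRO-seq 1M, 12 of 173 in qPRO-seq 1M and 27 of 122 in qPRO-seq 250k. These were 15.5, 6.94 and 22.1% of marked members, against 6.08, 5.28 and 10.3% of marked non-ZNF coding genes off chromosome 19 and 9.60, 6.42 and 14.7% of the other coding genes of chromosome 19. In qPRO-seq 1M these shares were thus close together. Among marked ZNF genes elsewhere the shares were lower than in members, at 7.46, 3.98 and 8.54%. When a member's lowest start peak was used in place of its top one, the medians were 41.9, 40.0 and 41.1.

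**Figure D3:**
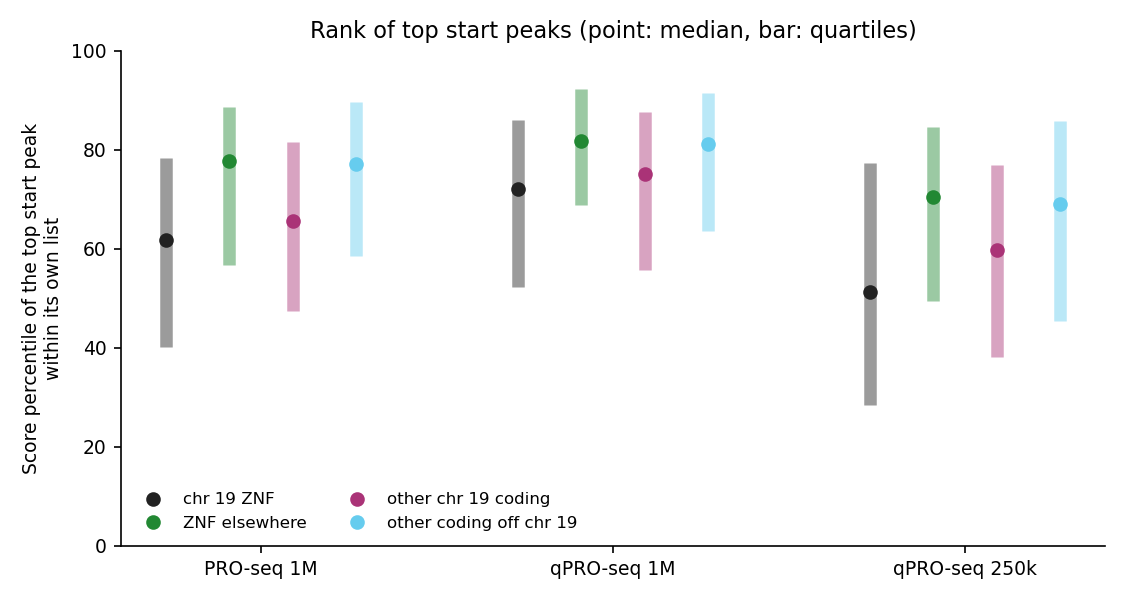
Score percentile of the top start peak within its own list (vertical axis), with points at the median and bars over the quartiles for 4 gene classes in each list. Chromosome 19 ZNF genes, at medians of 61.9, 72.1 and 51.3, sit lowest of the 4 classes in every list.

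The members with the highest scores lay in several clusters. ZNF564 (chr19:12525370-12551542, minus strand) had score percentiles of 98.5 in PRO-seq 1M, 99.3 in qPRO-seq 1M and 97.3 in qPRO-seq 250k. Its PRO-seq 1M peak, chr19:12551351-12551970, covered the 5′ end of the gene and also lay near a start of the coding gene AC008758.1. ZNF460 (chr19:57280051-57293569) had percentiles of 97.9, 99.7 and 97.6 in the same order, and its antisense partner ZNF460-AS1 shares the peak. ZNF700 (chr19:11925068-11950773) had percentiles of 88.7, 99.3 and 99.2. These 3 genes were high in every list. ZNF333 (chr19:14689801-14733746) was at 97.8 in PRO-seq 1M and at 73.0 and 71.9 in the qPRO-seq lists, and ZNF181 (chr19:34734155-34745378) was at 83.3, 99.3 and 85.7.

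Some members share 1 peak with a neighbour on the same or the opposite strand, so that the peak cannot be given to either. ZNF791 and ZNF490 shared a peak in all 3 lists (chr19:12610541-12611140 in PRO-seq 1M), at percentiles of 84.6, 90.6 and 98.6. ZNF146, whose protein consists of little more than fingers, shared its top peak with ZNF565 in each list, and ZNF580 shared its own with ZNF581. Counting any other protein-coding gene, the top start peak was shared by 34 of 148 members in PRO-seq 1M, 43 of 173 in qPRO-seq 1M and 32 of 122 in qPRO-seq 250k. With shared peaks left out, the shares of members with a start peak were 47.2, 55.3 and 37.8%.

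Between the 1M lists, a start peak in qPRO-seq 1M only was more frequent in the family than in other genes. A start peak in qPRO-seq 1M and none in PRO-seq 1M was found for 35 members, and the reverse for 10. The 35 were 19.1% (14.1 to 25.4) of the 183 members marked in either 1M list. The same share was 4.29% (2.27 to 7.94) for ZNF genes elsewhere, 6.84% (5.22 to 8.93) for other coding genes of chromosome 19 and 5.96% (5.51 to 6.44) for the remaining coding genes. The members' interval did not meet that of any other class. In the reverse direction the classes lay closer. The 10 members of 183 stood beside 9 of 210 ZNF genes elsewhere, 31 of 716 other chromosome 19 genes and 326 of 10088 remaining genes. With each list at its 15562 top-scored peaks, the balance within the family turned, with 16 members in qPRO-seq 1M alone and 20 in PRO-seq 1M alone, and the first were 12.2% (7.66 to 18.9) of 131. The other classes were then at 4.35, 6.75 and 3.48%, and the interval for other chromosome 19 genes (4.99 to 9.06) then overlapped that of members. In PRO-seq 1M only were then 18 of 184, 98 of 593 and 1137 of 8792 genes of these classes, beside the 20 of 131 members. Leaving out each cluster in turn gave 16.4 to 20.2%, with the lowest value without the cluster from ZNF101 to ZNF254.

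ZNF728 (chr19:22975468-23003176), ZNF285 (chr19:44382298-44401608) and ZNF492 (chr19:22634324-22667670) had the highest percentiles among members found in qPRO-seq 1M alone, at 73.1, 63.6 and 62.8. In PRO-seq 1M alone the highest were ZNF358 at 39.8, ZNF136 at 33.8 and ZNF554 at 28.2. The other 5 of these 8 members were ZNF599, ZNF784, ZNF749, ZNF550 and ZNF417, with percentiles between 1.16 and 23.3. ZNF880 was the member found in qPRO-seq 250k alone, at 28.3. The members found in PRO-seq 1M or qPRO-seq 250k alone thus all lay in the lower part of those lists by score.

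The difference between the 1M lists was also read at like score. Of the 173 members with a qPRO-seq 1M start peak, 138 (79.8%) also had one in PRO-seq 1M, against 93.8% of 10648 other coding genes. The difference of -14.0 points (-20.7 to -8.71) was -11.1 points (-16.5 to -5.66) after comparing genes within the 10 deciles of qPRO-seq 1M score. The gap was wide in the lower and middle deciles of qPRO-seq 1M score, where members were few. In the second decile 1 of 6 members and 54.6% of other genes were also in PRO-seq 1M, and in the fourth 6 of 12 and 73.8%. In the sixth, 15 of 22 members and 90.5% of other genes were in PRO-seq 1M. In the highest decile all 32 members were, as were 99.9% of other genes.

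The list from 250k cells, whose libraries also had more PCR cycles, was read in the same way. Of the same 173 members, 119 (68.8%) also had a start peak in qPRO-seq 250k, against 80.3% of other coding genes, a difference of -11.5 points (-18.8 to -5.04). Within score deciles it was -3.88 points (-9.55 to 1.80), and against ZNF genes elsewhere -2.36 points (-10.1 to 5.43). Both of these intervals include 0. With only peaks of a deposited p of at most 0.01, the first was -7.31 points (-13.7 to -0.956), an interval without 0. ZNF226 and ZNF816 were the members of highest qPRO-seq 1M score that the 1M lists shared and qPRO-seq 250k lacked. ZNF226 (chr19:44165073-44178381) was at percentiles of 20.3 in PRO-seq 1M and 94.6 in qPRO-seq 1M, and ZNF816 (chr19:52949379-52962911) at 30.4 and 93.2.

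Along the chromosome, members closer than 500 kb to the next formed 11 clusters of at least 3 genes, and 11 members lay scattered between them. Among clusters of at least 10 members, start peaks in PRO-seq 1M and at 250k were most frequent in those that run from ZNF414 to ZNF846 and from ZNF653 to ZNF791, both on the short arm. In the first of these, 10, 11 and 11 of 13 members had a start peak in the 3 lists, with ZNF266 at the highest qPRO-seq 1M percentile (96.9). In the second, 18, 19 and 18 of 25 did, with ZNF564 at the top. The counts in these clusters were nearly the same in the 3 lists.

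The cluster next to the centromere, from ZNF101 to ZNF254 (chr19:19668796-24129961), was the longest at 4.46 Mb. By count, but not by share, it held the most members that qPRO-seq 1M marked and PRO-seq 1M did not. The cluster from ZNF575 to ZNF180 had a like share, with 3 of 23 members in qPRO-seq 1M alone and 3 in both qPRO-seq lists only. Of its 37 members, PRO-seq 1M marked 15 (40.5%, 26.3 to 56.5). The other lists marked 24 (64.9%, 48.8 to 78.2) at 1M and 12 (32.4%, 19.6 to 48.5) at 250k. No member was marked in PRO-seq 1M and missing from qPRO-seq 1M, while 9 were marked the other way round. These 9 were ZNF101, ZNF90, ZNF737, ZNF43, ZNF492, ZNF728, ZNF730, ZNF91 and ZNF675. ZNF431 had the highest score here, at percentiles of 87.4, 93.5 and 79.2, and its qPRO-seq 1M peak, chr19:21141541-21142380, covered the whole sequence printed above.

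At the distal end of the long arm, the cluster from ZNF264 to ZNF446 (chr19:57191500-58481230) had start peaks at 21, 24 and 14 of 43 members. It held 16 of the 62 members with none, the most of any cluster, and was also the cluster with the most members. The cluster from ZNF101 to ZNF254 held 13 such members of 37, a like share, where 25.2% of all members had none. Unmarked were 2 runs of 4 neighbouring members, ZNF418, ZNF256, ZNF606 and ZNF135 (chr19:57921884-58086310) and ZNF132, ZNF324B, ZNF324 and ZNF446 (chr19:58432814-58481230). The cluster from ZNF628 to ZNF835 ended in another such run of ZNF471, ZNF470, ZNF71 and ZNF835 (chr19:56507843-56671783). Other coding genes inside the span of the cluster from ZNF264 to ZNF446 had a start peak in 12, 14 and 8 of 24 cases, about as often as the members. In the cluster from ZNF628 to ZNF835 they did in 4 of 23 cases in each list, where 11, 10 and 9 of 16 members did, and in the cluster from ZNF175 to ZNF331 in 4, 4 and 2 of 16.

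The cluster from ZNF175 to ZNF331 (chr19:51571298-53580269) had start peaks at 24, 28 and 15 of 39 members, and 10 of its members were in both 1M lists and missing at 250k. The cluster from ZNF575 to ZNF180 (chr19:43525497-44500524) had 14, 19 and 11 of 23, with ZNF575, ZNF233 and ZNF229 in no list. The cluster from ZNF565 to ZNF573 (chr19:36182060-37817300) had 17, 21 and 18 of 26. Its 5 members in no list were ZNF382, ZNF461, ZNF829, ZNF568 and ZNF793, of which ZNF829 and ZNF568 start next to each other on opposite strands, at positions 36916291 and 36916329. ZNF83, ZNF226 and ZNF585B had the highest qPRO-seq 1M percentiles of these 3 clusters, at 94.9, 94.6 and 97.3. In the smaller clusters ZNF77, ZNF181, ZNF780A and ZNF628 had the highest qPRO-seq 1M percentiles, at 86.7, 99.3, 96.9 and 97.7. ZNF556 was the unmarked gene of the cluster from ZNF554 to ZNF77. ZNF177 and ZNF560 were those of the cluster from ZNF414 to ZNF846, and ZNF491, ZNF439, ZNF763, ZNF433 and ZNF625 those of the cluster from ZNF653 to ZNF791.

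**Figure D4:**
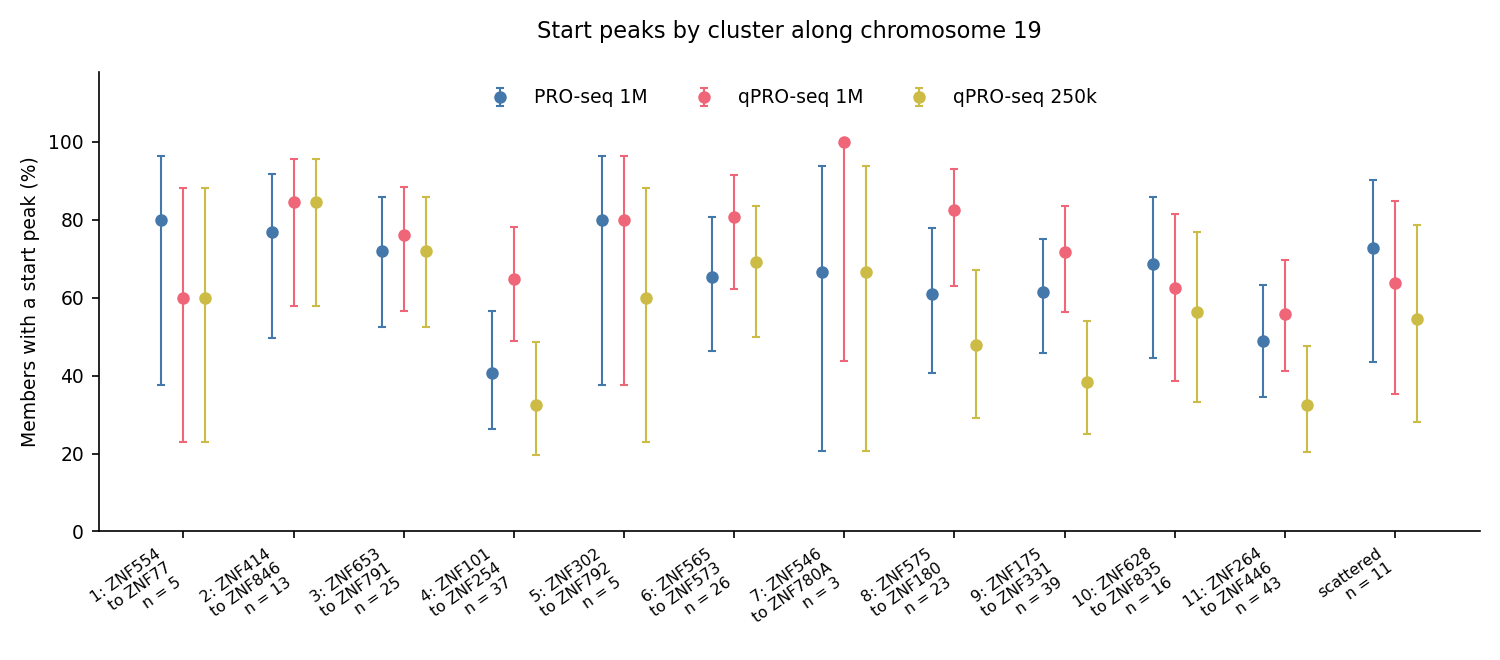
Share of members with a start peak (vertical axis, percent) in the 11 clusters in order along the chromosome and in the scattered members, with points for the 3 lists and Wilson 95% intervals for counting error. The cluster from ZNF101 to ZNF254 shows 40.5, 64.9 and 32.4%, and intervals in clusters of 3 or 5 genes span most of the axis.

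Some members have been studied for silencing of transposable elements. ZNF91, which represses SVA elements, had percentiles of 67.5 in qPRO-seq 1M and 6.00 in qPRO-seq 250k and no start peak in PRO-seq 1M. ZNF93, which represses LINE-1 elements, was at 34.2, 90.7 and 64.8 in the 3 lists. Ranks from lists of unequal length show no change from 1 list to another. ZNF649 and ZNF765, which bind LINE-1 sequences, were marked in both 1M lists, at 24.4 and 68.5 and at 24.2 and 51.2. ZNF808 was at 46.4, 82.8 and 40.5.

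ZNF274, which binds the 3′ ends of zinc-finger genes and recruits SETDB1, was at percentiles of 92.7, 82.8 and 78.0. ZNF331, an imprinted gene, was at 39.0, 77.8 and 50.2, with its peaks about a kilobase inside the gene's outermost start. ZNF568, ZNF208 and ZNF729 had no start peak in any list. ZNF208 and ZNF729 encode arrays of 36 and 34 fingers, where the median member had 12. For ZNF208, the nearest peak was 41242 bp from a start in PRO-seq 1M and 41102 bp in qPRO-seq 1M.

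Unmarked members were as a rule far from any peak. The median distance from their starts to the nearest peak was 36672.5 bp for the 98 members without a start peak in PRO-seq 1M, 27568 bp for the 73 in qPRO-seq 1M and 47995.5 bp for the 124 in qPRO-seq 250k. Within 1000 bp of a start there was a peak for 0, 1 and 0 of them. A missing start peak was therefore seldom a matter of the 500 bp limit.

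Where members had start peaks, the lists placed them alike. The centre of the top start peak lay a median of 45.5 bp upstream of the nearest annotated start in PRO-seq 1M, 45 bp in qPRO-seq 1M and 34 bp in qPRO-seq 250k. The peak covered a start in 89.9, 93.6 and 92.6% of marked members. Its centre lay within 100 bp of a start in 66.2, 80.3 and 76.2% of them. Median widths were 470.0, 480.0 and 395 bp, against 530.0, 560.0 and 460.0 bp for ZNF genes elsewhere. Of 206 PRO-seq 1M start peaks of members, 92.2% shared at least 1 bp with a qPRO-seq 1M peak, and 71.8% of 284 qPRO-seq 1M start peaks were overlapped by PRO-seq 1M. Start peaks of other coding genes gave 92.3 and 83.3%. The 145 qPRO-seq 250k start peaks were overlapped by qPRO-seq 1M in 97.2% of cases.

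The members had a median of 5 annotated starts, as did each comparison class. The share with a start peak did not rise with the number of starts in the family: in PRO-seq 1M it was 60.0% with 1 to 3 starts, 61.5% with 4 to 7 and 57.6% with 8 or more. Among ZNF genes elsewhere it was 60.2, 83.2 and 85.1%. In this list members with 1 to 3 starts were thus marked about as often as ZNF genes elsewhere, and the classes parted among genes with more starts. In the other lists members with 1 to 3 starts stood at 70.8% in qPRO-seq 1M and 55.4% at 250k, against 59.0 and 47.0% of ZNF genes elsewhere, with overlapping intervals.

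Peaks inside members but away from every start numbered 18 in PRO-seq 1M, 37 in qPRO-seq 1M and 9 in qPRO-seq 250k. Chromosome 19 held 474, 799 and 235 peaks away from starts in these lists. The highest by score lay in introns of ZNF792 (chr19:34962381-34962910, percentile 95.3 in qPRO-seq 1M) and ZNF850 (chr19:36771251-36772080, percentile 94.98), named after their values were seen. The ZNF850 peak had counterparts in the other lists, at percentiles of 94.5 and 71.7.

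Proteins were read from translated GENCODE transcripts, the longest for each gene. A KRAB match was the pattern F, any residue, D, V, then A or T within the first 150 residues, which is a match and not a domain call. It was found in 172 of 246 members (69.9%) and in 86 of 263 ZNF genes elsewhere (32.7%). Members had a median of 12 fingers, from 0 in ZNF738 to 36 in ZNF208, against 9 elsewhere. The cluster from ZNF101 to ZNF254 had the highest share of KRAB matches, in 33 of 37 members.

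Members with and without the match differed in PRO-seq 1M. With it, 54.7% (47.2 to 61.9) had a PRO-seq 1M start peak, and without it 73.0% (61.9 to 81.8) of 74 did. In qPRO-seq 1M the shares were 70.3 and 70.3%, and in qPRO-seq 250k 47.1 and 55.4%. ZNF genes elsewhere showed no such split, with 75.6 and 76.8% in PRO-seq 1M. Of the 35 members that qPRO-seq 1M marked and PRO-seq 1M did not, 32 had the match. They made up 25.4% (18.6 to 33.6) of the 126 KRAB members in either 1M list, against 5.26% (1.81 to 14.4) of 57 members without it. At equal list sizes the counts for KRAB members were 12 in each direction, 14.3% (8.37 to 23.3) of 84. Without the match it was 8.51% (3.36 to 19.9) of 47, so that the intervals then overlapped. The shares of KRAB members with a start peak were then 41.9% in both 1M lists, against 58.1 and 52.7% without the match.

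**Figure D5:**
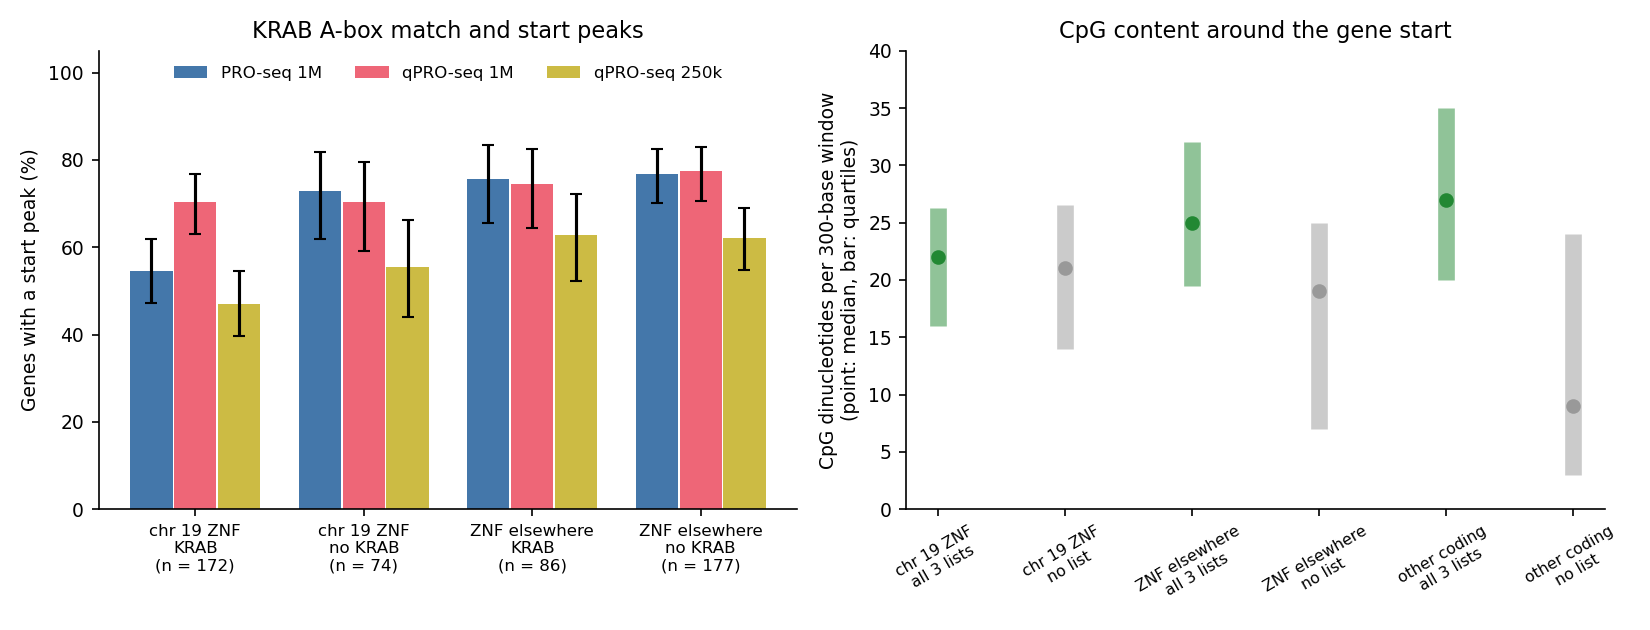
Left, share of genes with a start peak (percent, Wilson 95% intervals) by KRAB match for the 3 lists, where KRAB members stand at 54.7% in PRO-seq 1M and 70.3% in qPRO-seq 1M. Right, CpG dinucleotides in the 300-base window at the gene start (median and quartiles), with medians of 22 and 21 for members in all 3 lists and in none, against 27 and 9 for other coding genes.

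RefSeq gave a promoter window, 250 bases before to 50 after the start, for 215 of the 246 members. In most coding genes CpG content parted marked from unmarked genes, with a median of 27 CpG per window for those in all 3 lists and 9 for those in none. In members the medians were 22 and 21, and among ZNF genes elsewhere 25 and 19. ZNF256 is an example, with 26 CpG in its window and no start peak. Split by CpG content into 0 to 9, 10 to 19, 20 to 29 and 30 or more per window, members had a PRO-seq 1M start peak in 50.0, 59.5, 67.0 and 58.6% of cases. Other coding genes had one in 17.4, 52.6, 73.4 and 73.8%, and ZNF genes elsewhere in 54.5, 71.4, 85.5 and 87.5%. The intervals of the 4 member groups overlapped.

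Short motifs were searched on both strands of the windows, and each match is a description of the letters only. CCGGAA stood in 56.3% of member windows, 45.5% of windows of ZNF genes elsewhere and 17.3% of all 34961 windows. CCAAT stood in 53.5% of member windows and 34.6% of all, TATAAA in 1.86 and 11.5%, and GGGCGG in 67.9 and 45.03%. For GGGCGG the other coding genes of chromosome 19 were level with members at 66.8%, and CCAAT stood in 43.6% of windows of ZNF genes elsewhere. GCGCATGC was in 4.19% of member windows and AAGATGGC in 6.51%, against 3.06 and 2.89% of all, and 7.11 and 2.84% of ZNF genes elsewhere. No motif of the set contains another. AAGATGGC was in 8 of 100 windows of members marked in all 3 lists and in 0 of 51 windows of unmarked members, and in 6.42 and 1.14% of the same groups of other coding genes. CCGGAA was in 48.0% of windows of members in all 3 lists and in 64.7% of those of unmarked members. The same groups stood at 49.6 and 24.2% among ZNF genes elsewhere and at 34.2 and 9.62% among other coding genes. Whether the member shares follow marking or cluster was not tested.

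Motif content differed between clusters. In the cluster from ZNF101 to ZNF254 all 29 windows held CCAAT and 23 held CCGGAA, with a median of 10 CpG, while 22 of 24 windows in the cluster from ZNF653 to ZNF791 held CCAAT and 6 held CCGGAA. In the cluster from ZNF264 to ZNF446, 31 of 40 windows held CCGGAA and the median was 21 CpG. Other clusters were mixed: in the cluster from ZNF575 to ZNF180, 8 of 19 windows held CCGGAA and 4 held CCAAT, and in the cluster from ZNF414 to ZNF846, 6 and 4 of 12 did.

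Reads were 37 nt long, so near-identical copies could limit where they are placed. At least 1 word of 37 bases stood also in the window of another gene for 35 of 215 members (16.3%), covering at most 15.5% of a window's words. Of these 35 members, 17 lay among the 29 with a window in the cluster from ZNF101 to ZNF254. Members that shared a word had a start peak in 57.1, 77.1 and 48.6% of cases in the 3 lists, and members that shared none in 62.8, 70.6 and 52.8%. The part of read placement in the results was not tested beyond these windows.

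The partners of the KRAB domain were marked. Of 20 co-repressor genes of the TRIM28 pathway, 18 had a start peak in each list (90.0%, against 52.9, 54.5 and 44% of all protein-coding genes), all but CHD3 and DAXX. TRIM28 itself (chr19:58544091-58550722), just beyond the last cluster, was at percentiles of 80.1, 88.5 and 63.9. PPHLN1, a subunit of the HUSH silencing complex, was at 98.1, 98.6 and 95.8, and HDAC1, a histone deacetylase, at 91.3, 97.6 and 93.5. Of 20 other C2H2 genes of chromosome 19, named ZFP, ZSCAN, ZBTB, KLF and the like, 9, 10 and 9 had a start peak, shares of 45, 50 and 45% that lie near those of all protein-coding genes. Among these, KLF1, the erythroid factor, was at 43.3, 63.1 and 29.4, and the imprinted PEG3 had no start peak.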

How the data were processed

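The members and lists were chosen with earlier results of these data known. K562 libraries by PRO-seq or qPRO-seq were analysed through 3 peak lists, each named in the labels for both replicates of its group. Per the submitters' processing notes, fastp 0.20.0, Bowtie2 2.3.5.1, deepTools 3.1.3, UMI-tools and build hg38 were used. The dREG version, its thresholds, and how replicates were pooled are not given in the sources used here. The deposited score of each peak is the authors' value without a fixed unit and was used only for ranks within a list. The deposited p-value of each peak served as a filter in 1 alternative. The files carry no counts, so depth is unknown.

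Starts came from GENCODE release 29 and promoter windows from RefSeq (GRCh38.p14, 215 of 246 members matched by symbol). Peak starts, deposited from 0, are printed from 1. Shares carry Wilson intervals, differences Newcombe intervals, and differences within deciles Mantel-Haenszel estimates with Sato intervals, computed with Python 3.11.15, pandas 2.3.3 and SciPy 1.17.1 and tested on simulated data. Promoter words of 37 bases were compared among RefSeq windows, in place of a genome. Named genes were the 3 highest members per list, up to 3 highest in 1 list alone, the highest per cluster, unmarked members in clusters with 5 or fewer, 10 listed members (ZNF91, ZNF93, ZNF274, ZNF331, ZNF568, ZNF649, ZNF765, ZNF808, ZNF208, ZNF729), the 2 highest in both 1M lists and not at 250k, and TRIM28 with the 2 highest listed partners. Other genes were named after their values were seen. The result for a list of lymphoid markers is not reported here.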

Additional observations from a re-analysis of the deposited data

How the results depend on the processing

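Of 138 alternative values, 100 moved by less than their interval, 34 moved further with the same sign and 4 changed sign. Of the sign changes, 2 were in members minus non-ZNF coding genes off chromosome 19 in PRO-seq 1M, to -3.99 points with peaks at or above the median score and to -0.0610 points with lists of 15562 peaks. The other 2 were in qPRO-seq 250k at the median score, to -2.77 points against other chromosome 19 genes and to -5.68 points against non-ZNF coding genes off chromosome 19; both differences had intervals that included 0 to begin with. Shares of members with a start peak, for PRO-seq 1M, for qPRO-seq 1M and then for qPRO-seq 250k, became 52.0, 62.2 and 43.1% with the 5′ end of the gene alone, 39.0, 54.1 and 25.2% with scores at or above the median, and 47.2, 55.3 and 37.8% with peaks of 1 protein-coding gene; equal list sizes gave 46.7 and 45.1% in the 1M lists, and a limit of 0.01 on p gave 41.1% in qPRO-seq 250k. These fall by construction, since fewer starts or peaks enter. Members minus ZNF genes elsewhere in qPRO-seq 1M became -18.0 points at equal sizes. Members minus other chromosome 19 genes became 4.75 points in qPRO-seq 1M at equal sizes. Members minus non-ZNF coding genes off chromosome 19 became 2.90 points in qPRO-seq 1M at equal sizes and 8.46 points there at the median score. The cause of these shifts was not tested. Median percentiles, still counted in the full lists, became 67.8 and 82.3 in the 1M lists at equal sizes, and 41.9, 40.0 and 41.1 with the lowest start peak. The rise at equal sizes is by construction, since only the top-scored peaks remain, and so is the fall with the lowest peak. Without adjustment for score, retention at 250k was -11.5 points, and within deciles with the limit of 0.01 on p it was -7.31 points (-13.7 to -0.956), an interval without 0. When 50% of each peak had to be covered, and when centres had to lie within 100 bp, PRO-seq 1M start peaks were overlapped by qPRO-seq 1M in 83.0 and 76.2% and by qPRO-seq 250k in 57.3 and 54.4%, those of qPRO-seq 1M by PRO-seq 1M in 60.9 and 56.0% and by qPRO-seq 250k in 46.8 and 46.5%, and those of qPRO-seq 250k by PRO-seq 1M in 81.4 and 76.6% and by qPRO-seq 1M in 90.3 and 89.0%. Added after seeing the data, equal list sizes gave retention differences within deciles of -4.97 points at 250k and -9.49 points in PRO-seq 1M, and the comparison of the 1M lists by KRAB match, by cluster left out and under each start-peak rule was added likewise. No paired analysis was possible because each list stands for both replicates of its group, and no replicate could be left out for the same reason.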
